A study of Mus musculus with 20 samples.

Results

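The genes described here encode the transferases of phase II conjugation in mouse liver, the glutathione S-transferases (GSTs) and the UDP-glucuronosyltransferases (UGTs). Every gene whose symbol starts with Gsta, Gstk, Gstm, Gsto, Gstp, Gstt, Gstz, Mgst, Ugt1, Ugt2 or Ugt3 was taken if its expected count averaged at least 10 over the 20 libraries. This gave 39 of the 22298 genes listed, 22 with a GST symbol and 17 with a UGT symbol. A further 7 genes with such symbols averaged under 10 counts and were left out, namely Gsto2, Gstt4, Mgst2, Ugt1a2, Ugt1a8, Ugt2a1 and Ugt2a2. All libraries are bulk RNA-seq of whole liver, taken from male mice of the Lepr db/db strain, a model of obesity with diabetes in which the leptin receptor does not signal. Each mouse was 5 weeks old when it received an AAV8 vector by the tail vein, carrying a non-targeting shRNA (Vec) or 4 shRNAs against Pparg, the gene of PPARγ (shRNA). The mice were then dosed by gavage with vehicle or with benzbromarone (BBR), a uricosuric drug, at 25 mg per kg once daily for 4 weeks. The 4 groups, written Vec, Vec+BBR, shRNA and shRNA+BBR, hold 5 mice each, and every group, controls included, carries an AAV8 vector on the db/db background. The labels name the groups control, benzbromarone, PPAR knockdown and the combination, and no lean mice are among these libraries. The study describes the Pparg knockdown as specific to liver, and the promoter that drives the shRNAs is not given in the sources used here.

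Glutathione S-transferases join the tripeptide glutathione to electrophilic drugs and to products of lipid peroxidation. The alpha, mu, pi, theta, zeta and omega classes are soluble, the kappa class lies in mitochondria and peroxisomes, and the microsomal enzymes (Mgst) sit in membranes. UDP-glucuronosyltransferases of the endoplasmic reticulum transfer a sugar, mostly glucuronic acid from UDP-glucuronate, to bilirubin, steroids, bile acids and drugs, which makes them soluble enough to leave in bile or urine. In liver, several of these genes are known targets of the receptors that sense drugs and lipids and of the antioxidant factor Nrf2 (gene Nfe2l2).

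Total expected counts ran from 17432904 to 25024099 per library, with a median of 21409860, and the 39 transferases took between 1.62% and 2.19% of them. The 6 hepatocyte markers, Alb among them, summed to between 84500 and 145500 CPM (counts scaled to library size with TMM factors) in every library. By group the sum was 115600 to 145500 CPM in Vec and 84500 to 119400 CPM in Vec+BBR livers, and 109400 to 126300 CPM with knockdown alone and 101200 to 117800 CPM with both. Pparg, the targeted gene, was at 16.4 to 35.9 CPM in Vec and 3.24 to 7.31 CPM in shRNA livers, with a log2 fold change of -2.12, SE 0.28, adjusted p = 4.47e-05. Under BBR it was at 28.0 to 38.3 CPM with Vec and 7.19 to 21.8 CPM with shRNA, a log2 fold change of -1.20, SE 0.26, adjusted p = 0.00843. These groups did not overlap in either case. Vec replicate 3 stood apart from the other 4 Vec livers in several transferases and lay near the level of BBR livers there, as for Gstm3 (722 CPM against 186 to 343 CPM in the other Vec livers) and Ugt1a5 (186 against 32.6 to 103 CPM). Whether this library carries the right label was not tested, and the counts are given with and without it. Because it was singled out for such values, leaving it out enlarges those BBR differences by the choice itself, and values without it are a description and no further support. Reads from a whole liver are averaged over its cells, so that fewer cells of a type and less RNA per cell cannot be told apart.

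The 7 Ugt1a genes share 1 locus on chromosome 1 of GRCm38, from 88055388 to 88220002 on the plus strand (GENCODE M21). As a rule a Ugt1a gene has a first exon of its own, which encodes the substrate-binding part of the enzyme, spliced to exons that all share. In the annotation used, the longest transcripts of Ugt1a6a and Ugt1a7c have the same exon before the common ones, so these rows cannot be told apart by it. The exon junctions are shown because a read across one of them holds both the gene's own exon and the shared part. Each line gives the last 30 bases of the first exon in lower case and the first 30 bases of the common second exon (chr1:88215044-88215175) in capitals, 5′ to 3′, for the 4 genes whose longest coding transcript has 5 exons:
Ugt1a1, first exon chr1:88211959-88212871: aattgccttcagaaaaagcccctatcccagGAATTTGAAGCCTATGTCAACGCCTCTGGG
Ugt1a5, first exon chr1:88166012-88166903: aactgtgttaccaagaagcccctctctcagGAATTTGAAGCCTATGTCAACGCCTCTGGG
Ugt1a9, first exon chr1:88070800-88071678: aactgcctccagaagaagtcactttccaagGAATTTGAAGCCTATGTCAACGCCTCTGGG
Ugt1a10, first exon chr1:88055411-88056336: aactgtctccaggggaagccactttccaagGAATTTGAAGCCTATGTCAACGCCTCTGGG
The capitals are identical in all 4, while the lower-case stretches of Ugt1a1 and Ugt1a9 match at 23 of 30 positions and those of Ugt1a9 and Ugt1a10 at 26 of 30. Reads from the common exons fit every gene of the locus, and the deposited expected counts of the 7 genes are not whole numbers in 19 or 20 of the 20 libraries. Of all windows of 100 bases in the longest transcript, 57.2% for Ugt1a1 and 58.5% for Ugt1a9 also occur in another gene's transcripts. For Ugt1a6a every window was shared, for Gsta1 81.8%, for Gstp2 63.5%, for Gstp1 52.8%, for Gsta2 35.0%, for Ugt2b5 24.7%, for Ugt2b38 24.2% and for Gstt3 23.9%. In 18 of the 39 genes, Mgst3, Gstz1, Gstm7 and Ugt2b1 among them, no window was shared. Values of genes that share reads are uncertain one by one, so the summed Ugt1a, Gsta1 plus Gsta2, and Gstp rows are given beside them. The largest overlaps of Gsta1 and Gsta2 were with Gm3776 (71.3% of windows) and Gm10639 (24.4%), which are not transferases by the naming rule, and a sum with them was added after the data had been seen.

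Levels of different genes were compared on the FPKM scale, which the authors scaled for transcript length and library size. Mgst1, the microsomal enzyme of liver, was the most abundant transferase at 6353 ± 935 FPKM (SD, n = 20 livers) and ranked 11 among all genes. Gstm1 followed at 2380 ± 604 FPKM, Gsta3 at 1425 ± 130 FPKM and Gstz1, which also works as maleylacetoacetate isomerase in tyrosine breakdown, at 949.6 ± 151 FPKM (SD, n = 20 each). The ranges of Mgst1 and Gstm1 over the 20 livers did not meet (4917 to 8552 against 1459 to 3817 FPKM), whereas those of Gstm1 and Gsta3 (1125 to 1607 FPKM) and of Gsta3 and Gstz1 (727 to 1205 FPKM) did. Among the UGTs, Ugt1a1, the bilirubin-conjugating enzyme, led at 343 ± 82.0 FPKM, ahead of Ugt2b36 at 321 ± 31.7 FPKM and Ugt2b5 at 305 ± 54.0 FPKM (SD, n = 20 each), and these 3 overlapped. The lowest were Ugt1a10 at 1.73 ± 0.709 FPKM, Gstp2 at 1.60 ± 0.657 FPKM and Ugt2b37 at 0.827 ± 0.377 FPKM (SD, n = 20 each). The summed FPKM of the 22 GST genes ran from 12078 to 15726 in Vec, 13080 to 16868 in Vec+BBR, 11747 to 13312 in shRNA and 13516 to 14465 in shRNA+BBR livers. That of the 17 UGT genes ran from 1870 to 2226, 1912 to 2232, 1829 to 2138 and 1665 to 2032 FPKM in the same order, with a median of 1680 FPKM in shRNA+BBR against 2178, 2052 and 2108 FPKM in the others. The spread over all 20 livers, differences between groups included, was widest in Ugt1a9, with a coefficient of variation of 68.2%. It was lowest in Gsta3 at 9.2%.

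**Figure D1:**
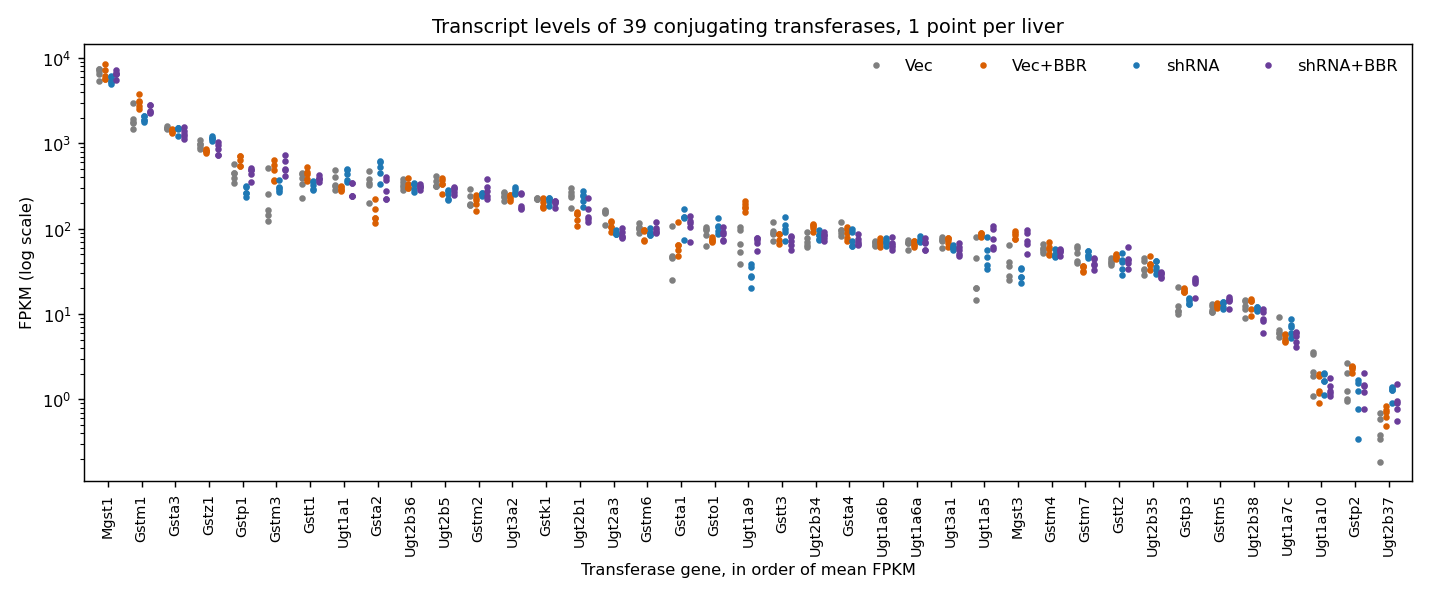
FPKM on a log scale (vertical axis) of the 39 transferases in order of mean level (horizontal axis), with 1 point for each of the 20 livers, coloured by group. Mgst1 lies on top at 4917 to 8552 FPKM. In Ugt1a9 the Vec+BBR livers lie above all others, while the shRNA+BBR livers (54.3 to 78.3 FPKM) lie within the Vec range (38.7 to 104 FPKM).

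The 4 comparisons and their interaction were tested with edgeR's quasi-likelihood test and Benjamini-Hochberg adjustment over 12342 genes. With BBR in Vec mice, 16 of the 39 transferases passed an adjusted p of 0.05, 6 higher and 10 lower, where 15.5% of all tested genes passed (7.58% higher and 7.88% lower). At an unadjusted p under 0.05 it was 20, where 30.2% of all genes passed. Among the 32 transferases with a mean count of at least 1000, 15 passed the adjusted threshold, where 24.4% of tested genes at that level did. The genes that rose were Ugt1a9, Mgst3, Ugt2b34, Ugt1a5, Gstm1 and Gstm3, and those that fell were Gstm7, Ugt2b1, Gsta2, Gstz1, Ugt2a3, Ugt1a10, Gstk1, Gstm6, Ugt1a1 and Gsto1. With BBR in shRNA mice, 11 passed, where 15.7% of all genes did (8.37% higher and 7.28% lower). At an unadjusted p under 0.05 it was 16, where 33.2% of all genes passed, and at a mean count of at least 1000 it was 10 of 32 after adjustment, where 20.7% of such genes passed. Here 5 rose, namely Mgst3, Ugt1a9, Gstp1, Gstp3 and Gstm3, and 6 fell, namely Ugt1a1, Gstz1, Ugt3a2, Gstt3, Ugt2b1 and Gsta2. With BBR in Vec mice the number ran from 8 (without Vec replicate 2) to 18 (8 higher, 10 lower, without Vec replicate 3) when 1 library was left out, with 9 without Vec+BBR replicate 2 and 10 without Vec replicate 1, and it was 8 when only these groups were fitted. In shRNA mice it ran from 5 (without shRNA+BBR replicate 3) to 14, with 6 without shRNA+BBR replicate 4 and 7 without shRNA replicate 1, 3 or 4. The 14 (6 higher, 8 lower) came without Vec replicate 3, with Gstm1, Gstm7 and Ugt2b38 added (log2 fold changes 0.40, -0.33 and -0.36). That library is in neither group compared and enters there only through the gene filter, the TMM factors and the shared estimate of spread.

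Between shRNA and Vec livers without BBR, 7 transferases passed, where 13.2% of all genes did (5.28% higher and 7.91% lower), and at a mean count of at least 1000 it was 6 of 32 against 19.2% of such genes. Gsta1 and Ugt2b37 were higher, and Ugt2a3, Ugt1a9, Gstp1, Ugt2b5 and Ugt3a1 were lower. Under BBR, 5 passed between shRNA+BBR and Vec+BBR livers, where 8.13% of all genes did (3.31% higher and 4.82% lower) and 11.9% of those with a mean count of at least 1000, with Gsta2 higher and Ugt1a9, Ugt2b38, Ugt2b35 and Ugt2b34 lower. At a mean count of at least 1000 it was 4 of 32 transferases (12.5%), near the share of such genes. The 4 lower ones are UGT genes, and the median log2 fold change of the 17 UGT genes there was -0.05. Without Vec replicate 3 the numbers were 9 (4 higher, 5 lower), with Gstm3 (0.74) and Ugt1a5 (0.92) added, and 6 (2 higher, 4 lower), with Gstm2 (0.49) added. Under BBR the number fell to 1 without shRNA+BBR replicate 2, to 2 without Vec+BBR replicate 4 or 5, and to 3 without Vec+BBR replicate 2, shRNA replicate 3 or shRNA+BBR replicate 1, 3 or 4. The median log2 fold change of the 39 transferases was -0.13 with BBR in Vec, -0.07 with BBR in shRNA, -0.13 with knockdown and -0.03 with knockdown under BBR, against medians between -0.01 and 0.01 over all tested genes. No transferase passed for the interaction, which asks whether the BBR effect differed between vectors, where 0.146% of all genes and 0.0885% of those with a mean count of at least 1000 did in edgeR. At an unadjusted p under 0.05, 5 of 39 (12.8%) did against 18.5% of all genes, and DESeq2 also gave 0 adjusted calls.

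**Figure D2:**
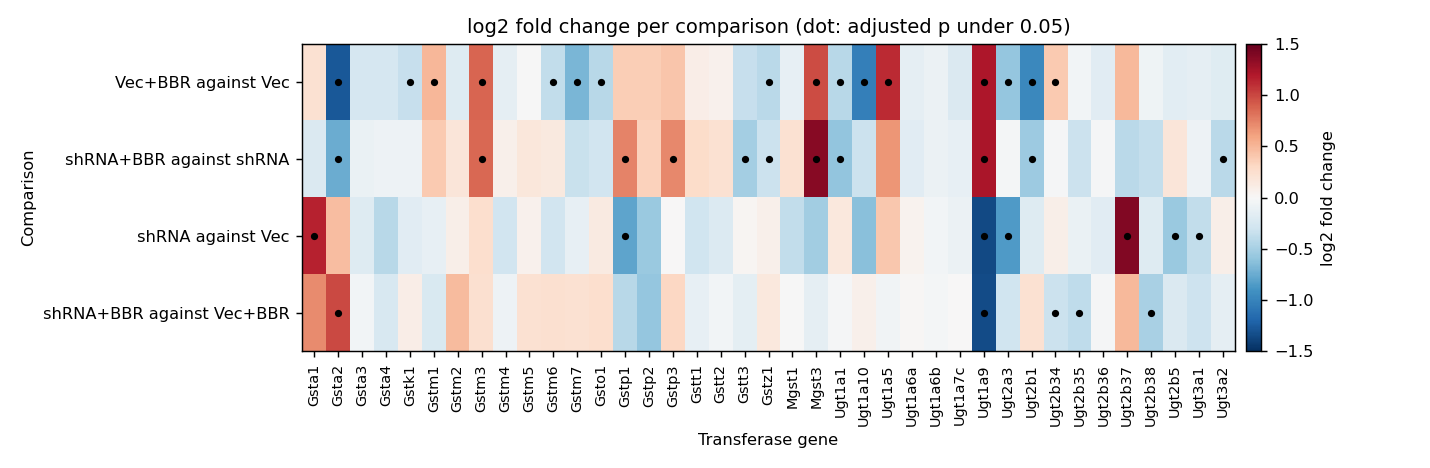
Colour gives the log2 fold change of each of the 39 transferases (horizontal axis) in 4 comparisons (vertical axis), red for higher and blue for lower, and a dot marks an adjusted p under 0.05. Ugt1a9 carries a dot in all 4 comparisons, red in both BBR ones and blue in both knockdown ones, and 16, 11, 7 and 5 dots stand in the rows from top to bottom.

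Ugt1a9, which conjugates phenols and many drugs, was the transferase that passed in all 4 comparisons. Its level was 124, 166, 243, 85.0 and 214 CPM in Vec and 441, 332, 338, 364 and 453 CPM in Vec+BBR livers. It was 84.8, 59.9, 60.0, 43.5 and 77.4 CPM in shRNA and 156, 153, 121, 169 and 162 CPM in shRNA+BBR livers. All Vec+BBR livers lay above all others, and the groups did not overlap in any of the 4 comparisons, although the lowest Vec and the highest shRNA liver all but met. BBR raised Ugt1a9 in Vec (log2 fold change 1.21, SE 0.22, adjusted p = 0.00111) and in shRNA mice (1.22, SE 0.22, adjusted p = 0.00366). It was lower with knockdown, both without BBR (-1.35, SE 0.22, adjusted p = 0.000325) and with BBR (-1.34, SE 0.22, adjusted p = 0.00112). The interaction was 0.01, SE 0.30, adjusted p = 0.988. These 4 calls were kept in all fits that left out 1 library, and the summed locus, given further on, passed in none of the comparisons.

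Ugt1a1, the first-exon form with the highest level, went the other way with BBR. It stood at 768, 799, 668, 1083 and 906 CPM in Vec and 656, 604, 692, 609.7 and 608 CPM in Vec+BBR livers. In the knockdown groups it stood at 839.7, 762, 979.6, 1042 and 1104 CPM in shRNA and 747, 557, 549, 537 and 741 CPM in shRNA+BBR livers. The shRNA and shRNA+BBR livers did not overlap (log2 fold change -0.59, SE 0.13, adjusted p = 0.00852), whereas Vec and Vec+BBR livers did, since Vec replicate 3 lay within the Vec+BBR range (-0.41, SE 0.13, adjusted p = 0.0382). The call in Vec mice was lost in 6 of 20 fits with 1 library left out, with adjusted p up to 0.110 without Vec replicate 4. Knockdown gave 0.16, adjusted p = 0.44 without and -0.02, adjusted p = 0.949 with BBR. Ugt1a5 passed with BBR in Vec mice (log2 fold change 1.12, adjusted p = 0.033), at 32.6 to 186 CPM in Vec, the highest in replicate 3, against 157 to 196 CPM in Vec+BBR. This call was lost in 6 of 20 such fits (adjusted p 0.0947 without Vec replicate 1), and without Vec replicate 3 the log2 fold change was 1.62. Ugt1a10, a low form, fell with BBR in Vec mice (-1.02, adjusted p = 0.0186, 4 of 20 such fits lost, adjusted p 0.0644 without Vec replicate 2). Ugt1a6a, Ugt1a6b and Ugt1a7c, the other first-exon forms, passed in no comparison, with log2 fold changes between -0.21 and 0.06 in the 4 comparisons.

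Summed over the Ugt1a locus, counts stood at 1434 ± 129.8 CPM in Vec against 1503 ± 75.6 CPM in Vec+BBR livers, and with knockdown at 1460 ± 137 CPM without against 1267 ± 147 CPM with BBR (SD, n = 5 each). None of the 4 comparisons of this sum passed in edgeR, with log2 fold changes of 0.07 (adjusted p = 0.673) and -0.20 (0.132) for BBR in Vec and shRNA mice and of 0.03 (0.887) and -0.25 (0.105) for knockdown without and with BBR. The shares within the locus are given as a description, with no test. Ugt1a9 took 5.63% to 16.8% of Ugt1a counts in Vec, 21.9% to 28.7% in Vec+BBR, 2.88% to 5.76% in shRNA and 10.5% to 13.5% in shRNA+BBR livers. Ugt1a1 took 46.1% to 71.7%, 38.6% to 44.9%, 57.0% to 70.0% and 42.8% to 55.8% in the same order. With BBR the Ugt1a9 share was higher and the Ugt1a1 share lower without overlap for either vector. Shares within a locus have a fixed total, so a higher share of a form lowers those of the rest by arithmetic. The changes in share are therefore not separate results. How the counting divided reads from the common exons is not given in the sources used here.

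**Figure D3:**
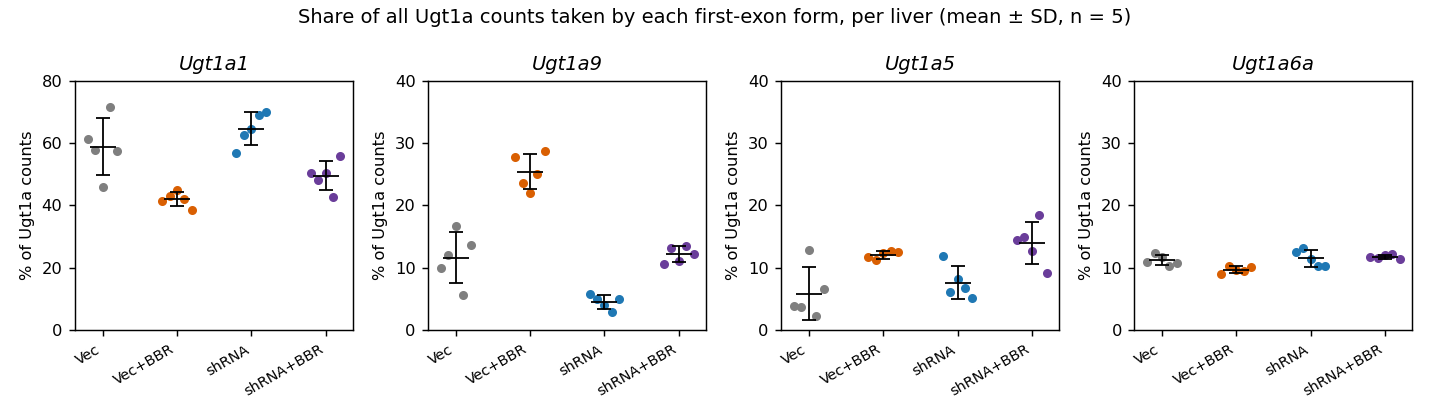
Percent of all Ugt1a counts (vertical axis; 0 to 80 for Ugt1a1, 0 to 40 for the others) taken by 4 first-exon forms in each liver, by group, with mean ± SD over 5 livers. The Ugt1a9 share lay between 21.9% and 28.7% in Vec+BBR and between 2.88% and 5.76% in shRNA livers, while the group means of Ugt1a6a lay between 9.68% and 11.7%.

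The upstream sequences of Ugt1a9 and Ugt1a1 are shown because these 2 starts in the same locus moved in opposite directions with BBR. They are the 250 bases before the RefSeq start on GRCm38.p6, plus strand, 5′ to 3′, and capitals mark AGGTCA, the core element read by many nuclear receptors:
Ugt1a9, chr1:88070529-88070778: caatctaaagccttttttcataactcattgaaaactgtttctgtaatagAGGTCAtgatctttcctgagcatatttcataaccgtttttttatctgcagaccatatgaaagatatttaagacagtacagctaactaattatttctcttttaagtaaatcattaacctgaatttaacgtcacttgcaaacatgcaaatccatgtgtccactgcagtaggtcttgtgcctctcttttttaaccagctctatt
Ugt1a1, chr1:88211709-88211958: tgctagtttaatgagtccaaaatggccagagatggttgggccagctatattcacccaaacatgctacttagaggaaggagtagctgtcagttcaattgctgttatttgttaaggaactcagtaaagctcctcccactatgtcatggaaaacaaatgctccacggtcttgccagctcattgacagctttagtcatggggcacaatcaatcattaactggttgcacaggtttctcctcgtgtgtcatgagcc
This element starts 201 bases before the Ugt1a9 start and is not in the Ugt1a1 window. Whether it has a part in either change was not tested. In the same locus, Ugt1a7c, which passed in no comparison, has the element too, and Ugt1a5, which rose with BBR in Vec mice, has none. RefSeq holds 43 promoter windows for 35 of the 39 genes and none for Gsta4, Gstt2, Ugt1a6b and Ugt3a2. Searched on both strands over windows of 300 bases (250 before to 50 after the start), AGGTCA occurred in 9 of the 43, those of Gstk1, Gstm1, Ugt1a7c, Ugt1a9, Ugt2b35, Ugt2b36, Ugt2b37, Ugt2b38 and Ugt2b5, against 16.3% of all 32851 promoter windows. This motif was added after the values had been seen. TGACNNNGC, the core of the antioxidant response element, occurred in Gsta3, Gstm5, Gstm7 and Mgst1, against 12.4% of all windows. The DR1 and DR4 repeats, direct repeats of AGGTCA spaced by 1 and 4 bases that contain the single element, and TTGCGTG of the xenobiotic response element occurred in none of the 43 windows, against 0.04%, 0.02% and 1.16% of all windows.

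The alpha-class genes Gsta1 and Gsta2 lie on chromosome 9 (GRCm38, from 78230656 to 78242684 and from 78331018 to 78355788) and divide their reads with near copies. Gsta2 was at 321, 373, 182, 418 and 291 CPM in Vec and 202, 100.2, 116, 93.9 and 146 CPM in Vec+BBR livers. With knockdown it was at 391, 284, 531, 441 and 531 CPM in shRNA and 236, 368, 197, 192 and 310.0 CPM in shRNA+BBR livers. In 4 of the Vec+BBR livers it lay below every other liver. Gsta2 fell with BBR in Vec mice (log2 fold change -1.27, SE 0.24, adjusted p = 0.00184) and in shRNA mice (-0.74, SE 0.24, adjusted p = 0.0419), and under BBR it was higher with knockdown (0.99, SE 0.24, adjusted p = 0.0162). The call in shRNA mice was lost in 7 of 20 fits with 1 library left out (adjusted p 0.122 without shRNA+BBR replicate 3). The call under BBR was lost in 1 of them (0.0528 without shRNA+BBR replicate 2).

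Gsta1 was at 23.5, 44.9, 99.6, 40.4 and 43.3 CPM in Vec and 59.5, 91.9, 41.9, 46.7 and 55.7 CPM in Vec+BBR livers. It was at 148, 62.3, 117, 116 and 119 CPM in shRNA and 89.8, 113, 62.4, 120.3 and 98.6 CPM in shRNA+BBR livers. Gsta1 rose with knockdown without BBR (log2 fold change 1.16, SE 0.30, adjusted p = 0.0137), with 1 Vec liver, replicate 3, inside the shRNA range, and without that liver the log2 fold change was 1.57. It did not pass with BBR in Vec (0.23, adjusted p = 0.649) or in shRNA mice (-0.22, adjusted p = 0.636). Summed, the Gsta1 and Gsta2 rows fell from 368 ± 70.7 CPM in Vec to 189.7 ± 46.8 CPM in Vec+BBR livers (SD, n = 5 each), which is -0.95 on the log2 scale (edgeR adjusted p = 0.0027). In shRNA mice the sum went from 548 ± 122 to 359 ± 89.2 CPM (SD, n = 5 each), which is -0.61 on the log2 scale (edgeR adjusted p = 0.038). With knockdown the sum gave 0.58 without BBR, which did not pass (adjusted p = 0.052), and 0.92 with BBR (adjusted p = 0.007). With Gm3776 and Gm10639 in the sum, edgeR gave -0.75 (adjusted p = 0.0096) and -0.49 (0.073) for BBR in Vec and shRNA mice, and 0.63 (0.029) and 0.89 (0.0065) for knockdown without and with BBR, so that the fall with BBR in shRNA mice did not pass in this sum.

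Gsta3, the alpha-class gene on chromosome 1, was at 1808, 2030.1, 1841, 1741 and 1881 CPM in Vec and 1745, 1384, 1658, 1408 and 1636 CPM in Vec+BBR livers. It was at 1726, 1348, 1753, 1639 and 1669 CPM in shRNA and 1739, 1378, 1442, 1472 and 1555 CPM in shRNA+BBR livers. These groups overlapped in each comparison, and no log2 fold change passed (-0.25, SE 0.09, adjusted p = 0.0765 with BBR in Vec, -0.19, SE 0.09, adjusted p = 0.18 with knockdown, -0.05, SE 0.09, adjusted p = 0.806 with knockdown under BBR and -0.10, SE 0.09, adjusted p = 0.469 with BBR in shRNA mice). Gsta4, which conjugates 4-hydroxynonenal, a product of lipid peroxidation, was at 85.3 to 117 CPM in Vec and 59.6 to 94.5 CPM in shRNA livers and did not pass either (knockdown -0.42, adjusted p = 0.0592).

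The 7 mu-class genes lie together on chromosome 3 (GRCm38, from 107895821 to 108044894) and did not move as 1 block. Gstm1, the main mu-class gene here, was at 1999.9, 2643, 4078, 2203 and 2516 CPM in Vec and 4199.9, 4291, 3214, 3332 and 3886 CPM in Vec+BBR livers. It was at 2724, 2251, 2413, 2315 and 2626 CPM in shRNA and 2917, 3781, 3136, 3568 and 2779 CPM in shRNA+BBR livers. Gstm1 rose with BBR in Vec mice (log2 fold change 0.49, SE 0.15, adjusted p = 0.0332), where Vec replicate 3 lay within the Vec+BBR range. In shRNA mice the groups did not overlap and the test did not pass (0.39, SE 0.15, adjusted p = 0.0818). The call in Vec mice was lost in 7 of 20 fits with 1 library left out (adjusted p 0.110 without Vec replicate 1), and without Vec replicate 3 the log2 fold change was 0.69. Gstm3 rose with BBR for both vectors (0.87, adjusted p = 0.0439 in Vec, 0.86, adjusted p = 0.0469 in shRNA), from 186 to 722 to 463 to 729.6 CPM and from 353 to 489 to 517 to 938 CPM. Vec replicate 3 was the Vec liver with the highest value, and without it the log2 fold change in Vec was 1.35. The 2 Gstm3 calls were lost in 12 and 14 of the 20 fits with 1 library left out, with adjusted p up to 0.121 without Vec replicate 1 and 0.107 without shRNA+BBR replicate 4.

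Gstm7 went down while Gstm1 and Gstm3 went up. Its level was 71.2, 87.6, 49.1, 68.4 and 52.0 CPM in Vec and 43.3, 38.2, 40.7, 36.0 and 45.5 CPM in Vec+BBR livers, without overlap. In the knockdown groups it was 57.4, 62.4, 58.4, 58.2 and 63.8 CPM in shRNA and 50.9, 50.6, 42.1, 44.4 and 50.6 CPM in shRNA+BBR livers, again without overlap. Gstm7 fell with BBR in Vec mice (log2 fold change -0.69, SE 0.12, adjusted p = 0.00101), a call kept with any 1 library left out, and did not pass in shRNA mice (-0.33, SE 0.12, adjusted p = 0.0629). Gstm6 also fell with BBR in Vec mice (-0.37, adjusted p = 0.0338, 5 of 20 such fits lost, adjusted p 0.101 without Vec+BBR replicate 4) and gave 0.15, adjusted p = 0.372 in shRNA mice. Gstm2, Gstm4 and Gstm5 passed nowhere, and the value nearest the threshold among them was that of Gstm2 in shRNA+BBR against Vec+BBR livers (0.47, adjusted p = 0.0613).

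Gstp1, the pi-class enzyme, lies on chromosome 19 (GRCm38, from 4035407 to 4037985) beside Gstp2 and Gstp3. It was at 391, 423, 501, 324 and 289 CPM in Vec and 466, 519, 442, 553 and 517 CPM in Vec+BBR livers. It was at 261, 245, 212, 188 and 210.2 CPM in shRNA and 352, 417, 431, 394 and 275 CPM in shRNA+BBR livers. The 5 shRNA livers were the 5 lowest of all 20. Gstp1 was lower with knockdown (log2 fold change -0.79, SE 0.14, adjusted p = 0.000759) and rose with BBR in shRNA mice (0.75, SE 0.14, adjusted p = 0.00441). It did not pass with BBR in Vec mice (0.37, SE 0.14, adjusted p = 0.0734) or with knockdown under BBR, where the groups did not overlap (-0.42, SE 0.14, adjusted p = 0.0658). Both calls were kept with any 1 library left out, and without Vec replicate 3 the log2 fold change with BBR in Vec mice was 0.48.

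Gstp3 was at 8.22, 8.93, 15.5, 7.15 and 8.95 CPM in Vec and 13.6, 11.4, 14.4, 12.3 and 13.7 CPM in Vec+BBR livers. It was at 10.1, 10.2, 9.22, 9.07 and 10.6 CPM in shRNA and 15.9, 19.6, 18.0, 16.9 and 10.5 CPM in shRNA+BBR livers. In both vehicle groups all livers but Vec replicate 3 lay at 10.6 CPM or lower, and in both BBR groups all but shRNA+BBR replicate 5 lay at 11.4 CPM or higher. Gstp3 rose with BBR in shRNA mice (log2 fold change 0.72, SE 0.17, adjusted p = 0.0114). In Vec mice it did not pass (0.42, SE 0.17, adjusted p = 0.102), and the log2 fold change without replicate 3 was 0.65. Gstp2, at 1.43 to 1.79 CPM in Vec+BBR livers and lower still in shRNA livers, passed nowhere. Summed, the Gstp rows were lower with knockdown (-0.76, edgeR adjusted p = 0.0011) and higher with BBR in shRNA mice (0.75, adjusted p = 0.0044), as for Gstp1 alone.

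Gstz1 lies alone on chromosome 12 (GRCm38, from 87147165 to 87164723). It was at 1354, 1527, 1276, 1409 and 1301 CPM in Vec and 1160.2, 919, 1058, 941 and 1105 CPM in Vec+BBR livers. It was at 1371, 1442, 1460.5, 1462 and 1508 CPM in shRNA and 1305, 1103, 1037, 1129 and 1209 CPM in shRNA+BBR livers. For both vectors all BBR livers lay below all vehicle livers. Gstz1 fell with BBR in Vec (log2 fold change -0.41, SE 0.09, adjusted p = 0.00336) and in shRNA mice (-0.32, SE 0.09, adjusted p = 0.0176), and the second call was lost without shRNA+BBR replicate 3 (adjusted p 0.0583). Knockdown gave 0.08, adjusted p = 0.586 without and 0.16, adjusted p = 0.262 with BBR.

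Of the theta class on chromosome 10, Gstt3 was at 187, 187, 144, 225 and 169.5 CPM in Vec and 169, 119, 157, 116 and 158 CPM in Vec+BBR livers. It was at 133, 178, 205, 163 and 249.2 CPM in shRNA and 117, 157, 104, 132 and 141 CPM in shRNA+BBR livers. Gstt3 fell with BBR in shRNA mice with overlap (log2 fold change -0.51, SE 0.16, adjusted p = 0.0335, lost in 6 of 20 fits with 1 library left out, adjusted p 0.105 without shRNA+BBR replicate 3) and did not pass in Vec mice (-0.35, SE 0.16, adjusted p = 0.14). Gstt1 and Gstt2 passed nowhere, with log2 fold changes between -0.30 and 0.27. Gstk1, the mitochondrial and peroxisomal enzyme, fell with BBR in Vec mice (-0.35, adjusted p = 0.0222, 4 of 20 such fits lost, adjusted p 0.0689 without Vec+BBR replicate 4). Gsto1, which reduces dehydroascorbate, fell there as well (-0.41, adjusted p = 0.0468, 11 of 20 such fits lost, adjusted p 0.137 without Vec replicate 2). Neither passed in shRNA mice (-0.08, adjusted p = 0.593 and -0.29, adjusted p = 0.144).

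The membrane-bound GSTs are encoded by Mgst1 on chromosome 6 and Mgst3 on chromosome 1. Mgst3 was at 29.2, 45.9, 75.1, 30.8 and 46.3 CPM in Vec and 108, 73.0, 91.4, 77.5 and 96.2 CPM in Vec+BBR livers. It was at 30.2, 24.9, 37.8, 28.9 and 36.8 CPM in shRNA and 70.5, 81.2, 108, 95.6 and 52.8 CPM in shRNA+BBR livers. Only Vec replicate 3 among the 10 vehicle livers reached the level of any BBR liver. Mgst3 rose with BBR in Vec (log2 fold change 0.97, SE 0.22, adjusted p = 0.00522) and in shRNA mice (1.36, SE 0.22, adjusted p = 0.00226), kept with any 1 library left out, and without Vec replicate 3 the first value was 1.22. Knockdown did not pass (-0.52, adjusted p = 0.122 without and -0.13, adjusted p = 0.753 with BBR). Mgst1 was at 6488, 6627, 6546, 4504 and 5542 CPM in Vec and 7422, 4179.7, 5092, 4438 and 6065 CPM in Vec+BBR livers. It was at 5112, 4371, 4963, 4396 and 4128 CPM in shRNA and 5396, 5492, 6203, 4670.4 and 5217 CPM in shRNA+BBR livers. Mgst1 passed in no comparison, and its largest log2 fold change was -0.37, SE 0.14, adjusted p = 0.0905 for knockdown without BBR.

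**Figure D4:**
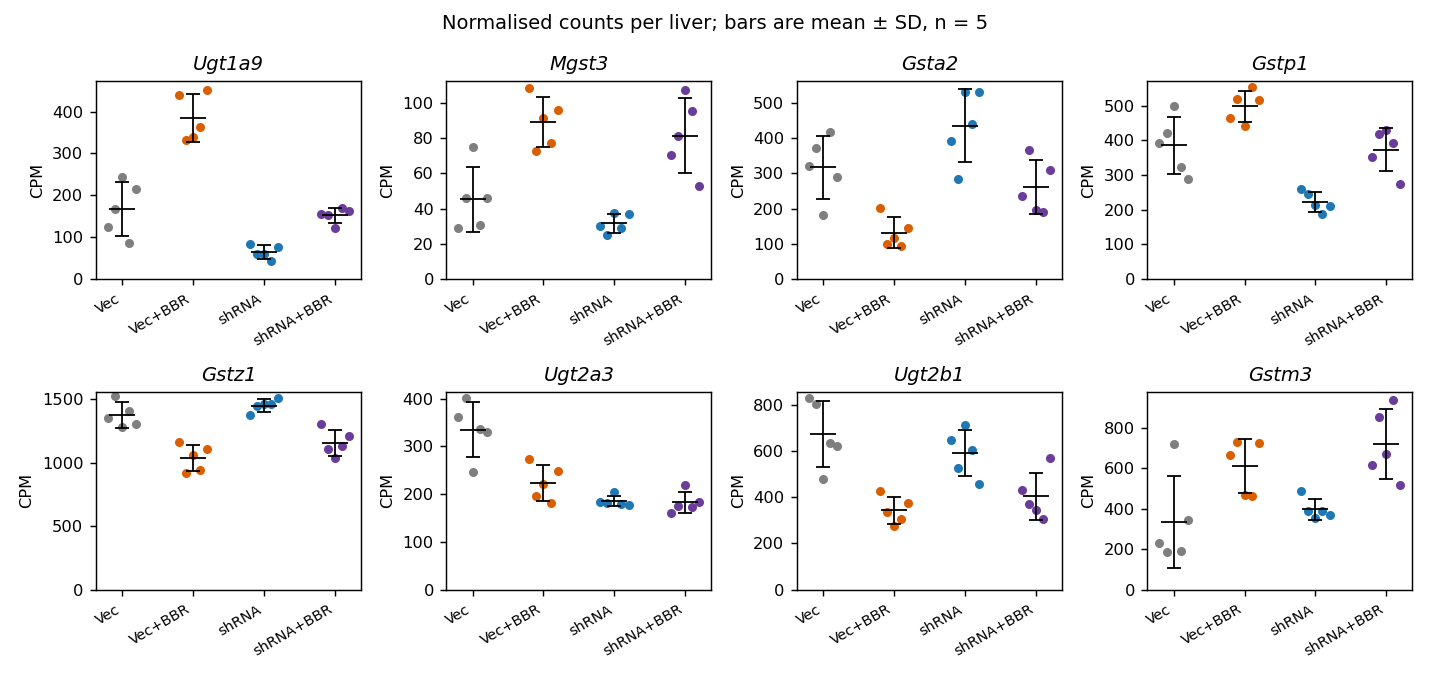
CPM (vertical axes, each from 0) of 8 transferases in each liver, by group, with mean ± SD over 5 livers. Ugt1a9 was at 332 to 453 CPM in Vec+BBR and at 43.5 to 84.8 CPM in shRNA livers, and Vec replicate 3 was the highest Vec liver for Ugt1a9, Mgst3, Gstp1 and Gstm3 and the lowest for Gsta2, Gstz1, Ugt2a3 and Ugt2b1.

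The Ugt2 genes, whose enzymes conjugate steroids and bile acids among others, lie together on chromosome 5 (GRCm38, from 86889767 to 87424203). Ugt2b1 was at 828, 803, 479, 632 and 621 CPM in Vec and 426, 335, 274, 307 and 376 CPM in Vec+BBR livers, without overlap. It was at 646, 528, 713, 606 and 459 CPM in shRNA and 429, 369, 344, 308 and 569 CPM in shRNA+BBR livers, with overlap. Ugt2b1 fell with BBR in Vec (log2 fold change -0.97, SE 0.17, adjusted p = 0.00111) and in shRNA mice (-0.55, SE 0.17, adjusted p = 0.037). The first call was kept with any 1 library left out and the second was lost in 6 of 20 such fits (adjusted p 0.105 without shRNA+BBR replicate 3). Knockdown gave -0.19, adjusted p = 0.5 without and 0.23, adjusted p = 0.43 with BBR.

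Ugt2a3 was at 361, 403, 247, 336 and 330.4 CPM in Vec and 274, 196, 221, 181 and 248 CPM in Vec+BBR livers. It was at 183, 182, 205, 181 and 178 CPM in shRNA and 160.4, 175, 219, 174 and 184 CPM in shRNA+BBR livers. The Vec livers were higher than all livers of both shRNA groups. Ugt2a3 was lower with knockdown (log2 fold change -0.85, SE 0.12, adjusted p = 0.000117) and with BBR in Vec mice (-0.58, SE 0.12, adjusted p = 0.00342), both kept with any 1 library left out. On the shRNA background BBR gave -0.03, SE 0.12, adjusted p = 0.907, and the interaction, 0.56, SE 0.17, adjusted p = 0.121, did not pass.

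Ugt2b34 was at 231, 227, 200.2, 283 and 242 CPM in Vec and 321, 307, 276, 312 and 331 CPM in Vec+BBR livers. It was at 255, 228, 261, 290.1 and 219.8 CPM in shRNA and 229.6, 224, 262, 252 and 268 CPM in shRNA+BBR livers. All Vec+BBR livers lay above all shRNA+BBR livers, and Vec replicate 4 was the 1 Vec liver within the Vec+BBR range. Ugt2b34 rose with BBR in Vec mice (log2 fold change 0.39, SE 0.09, adjusted p = 0.00895) and under BBR was lower with knockdown (-0.33, SE 0.09, adjusted p = 0.0373). The second call was lost in 10 of 20 fits with 1 library left out (adjusted p 0.115 without shRNA+BBR replicate 2). BBR in shRNA mice gave -0.02, SE 0.09, adjusted p = 0.897, and the interaction, -0.41, SE 0.13, adjusted p = 0.135, did not pass.

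Ugt2b35 was at 148, 110.4, 118, 152 and 116 CPM in Vec and 131, 139.6, 110.1, 119.9 and 127 CPM in Vec+BBR livers. It was at 139, 107, 121, 136 and 97.8 CPM in shRNA and 88.3, 93.1, 106, 99.5 and 94.1 CPM in shRNA+BBR livers. The shRNA+BBR livers lay below all Vec+BBR livers (log2 fold change -0.38, SE 0.11, adjusted p = 0.0334), a call lost in 8 of 20 fits with 1 library left out (adjusted p 0.104 without Vec+BBR replicate 2). Ugt2b38 was at 24.8, 25.1, 18.2, 27.6 and 27.2 CPM in Vec and 22.5, 23.9, 17.9, 24.9 and 28.0 CPM in Vec+BBR livers. It was at 21.9, 20.5, 22.9, 22.1 and 20.4 CPM in shRNA and 19.2, 11.9, 15.9, 16.4 and 20.5 CPM in shRNA+BBR livers. Under BBR, Ugt2b38 was lower with knockdown, with overlap (-0.48, SE 0.13, adjusted p = 0.0301, lost in 6 of 20 such fits, adjusted p 0.0945 without shRNA+BBR replicate 2).

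Ugt2b5 was at 825, 766, 619.8, 597 and 598 CPM in Vec and 769.8, 540.4, 469, 578 and 689.5 CPM in Vec+BBR livers. It was at 537, 409, 517, 455 and 395 CPM in shRNA and 488, 589, 570.3, 456 and 523 CPM in shRNA+BBR livers. All shRNA livers lay below all Vec livers (log2 fold change -0.56, SE 0.13, adjusted p = 0.00833), and under BBR the difference did not pass (-0.21, SE 0.13, adjusted p = 0.339). Ugt2b37, the lowest of the 39 by mean FPKM, was at 1.40, 0.836, 1.18, 0.355 and 0.659 CPM in Vec and 1.496, 1.03, 0.904, 1.25 and 1.55 CPM in Vec+BBR livers. It was at 2.42, 2.40, 2.66, 2.50 and 1.67 CPM in shRNA and 1.75, 1.53, 1.09, 1.69 and 2.74 CPM in shRNA+BBR livers. All shRNA livers lay above all Vec livers (1.39, SE 0.29, adjusted p = 0.00274), with 7 to 66.1 counts per library behind these values, where 3 counts mean 0.12 to 0.172 CPM. Both calls were kept with any 1 library left out.

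Ugt2b36 was at 748, 729, 541, 582 and 561 CPM in Vec and 730.3, 467, 509, 514 and 586 CPM in Vec+BBR livers. It was at 609, 517, 608, 598 and 474 CPM in shRNA and 522, 606, 570.1, 502 and 571 CPM in shRNA+BBR livers. The groups overlapped in each comparison, and log2 fold changes lay between -0.17 and -0.02, the largest in size with BBR in Vec mice (-0.17, SE 0.12, adjusted p = 0.368).

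The Ugt3a genes on chromosome 15 encode enzymes that use other UDP sugars than glucuronate. Ugt3a1 was at 172, 189, 143, 178 and 176 CPM in Vec and 184, 119, 165, 144 and 173 CPM in Vec+BBR livers. It was at 132, 134, 133, 122 and 141 CPM in shRNA and 132, 117, 128, 107 and 146 CPM in shRNA+BBR livers. Ugt3a1 was lower with knockdown, without overlap (log2 fold change -0.37, SE 0.11, adjusted p = 0.0266, lost in 4 of 20 fits with 1 library left out, adjusted p 0.0729 without Vec replicate 2), and did not pass under BBR (-0.32, SE 0.11, adjusted p = 0.0723). Ugt3a2 was at 596, 629, 521, 615 and 641 CPM in Vec and 606, 426, 545, 493 and 578 CPM in Vec+BBR livers. It was at 678, 601, 625, 689 and 589 CPM in shRNA and 580.0, 410.2, 410.2, 429 and 580.5 CPM in shRNA+BBR livers. Ugt3a2 fell with BBR in shRNA mice, without overlap (-0.40, SE 0.12, adjusted p = 0.0261, lost in 5 of 20 such fits, adjusted p 0.0829 without shRNA+BBR replicate 3), and gave -0.18, adjusted p = 0.31 in Vec mice.

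The BBR comparisons in Vec and in shRNA mice share no library and can be set side by side. Of the 16 transferases that passed in Vec mice and the 11 in shRNA mice, 7 passed in both and had the same sign each time, which is 43.8% and 63.6% of these lists. The matching shares over all tested genes were not computed, so this overlap is a description and not a trait of the transferases. Mgst3, Ugt1a9 and Gstm3 rose in both, and Gsta2, Ugt2b1, Ugt1a1 and Gstz1 fell in both. The sign was the same for 30 of the 39 transferases (76.9%), against 62.8% of all tested genes. The 2 knockdown comparisons, without and with BBR, share no library either, and 1 transferase, Ugt1a9, passed in both, again with no share over all genes computed. The sign was the same there for 28 of 39 (71.8%), against 58.2% of all tested genes. The all-gene shares for sign, and those for overlap given next, were not matched for mean count. Genes that share reads are also not independent, so these shares are a description. Groups did not overlap for 4 transferases with BBR in Vec (10.3%, against 8.94% of all genes), 9 with BBR in shRNA (23.1%, against 11.4%), 7 with knockdown (17.9%, against 8.96%; Gstk1 is the one among them that did not pass, -0.17, adjusted p = 0.271) and 4 with knockdown under BBR (10.3%, against 8.48%).

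**Figure D5:**
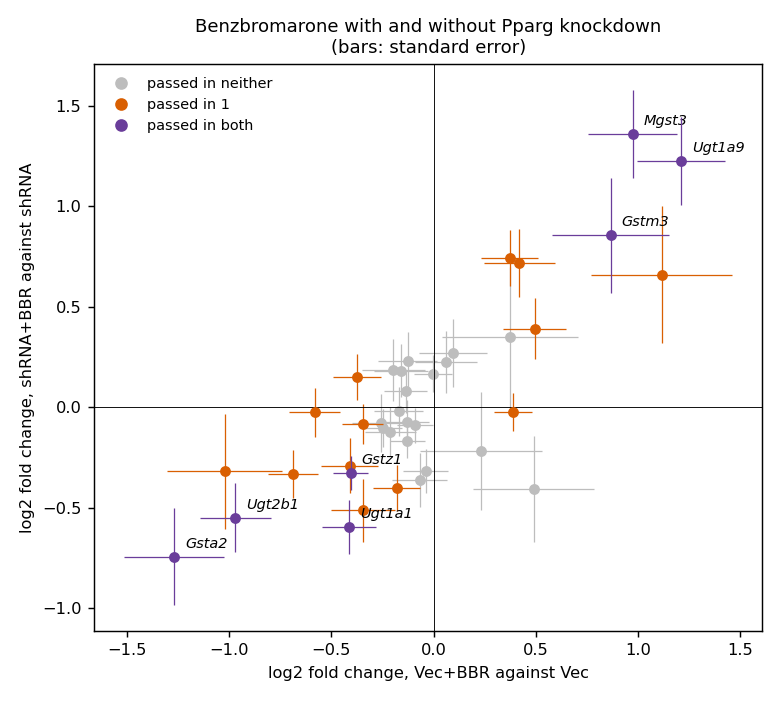
Log2 fold change with BBR in Vec mice (horizontal axis) against that in shRNA mice (vertical axis) for the 39 transferases, with bars of 1 standard error. The 7 genes that passed in both comparisons, 3 higher and 4 lower, are named, and no library enters both axes.

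Genes that supply or remove what these enzymes use were read from lists of their own. Among 9 tested genes of glutathione supply, 2 rose and 1 fell with BBR in Vec mice, where 15.5% of all genes passed. Gclc, the catalytic subunit of the rate-limiting enzyme of glutathione synthesis, was at 133 to 172 CPM in Vec and 199 to 276 CPM in Vec+BBR livers (log2 fold change 0.65, SE 0.11, adjusted p = 0.000979). In shRNA+BBR livers it was at 113 to 181 CPM, lower than in Vec+BBR (-0.66, SE 0.11, adjusted p = 0.0015), while shRNA livers were at 132 to 169.5 CPM. The interaction for Gclc, -0.64, SE 0.16, adjusted p = 0.0875, did not pass. Ggct rose with BBR in Vec (0.71, adjusted p = 0.0208) and shRNA mice (0.72, adjusted p = 0.0248), Ggt6 fell in both (-0.57, adjusted p = 0.0172 and -0.51, adjusted p = 0.0328), and Gss, glutathione synthetase, rose in shRNA mice (0.34, adjusted p = 0.0403). The summed level of the 11 listed genes was 729 to 811 CPM in Vec+BBR livers and at most 668 CPM in each of the other groups.

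Among 10 genes of UDP-glucuronate supply, 2 rose and 1 fell with BBR in Vec mice, where 15.5% of all genes passed. Ugdh, which makes UDP-glucuronate from UDP-glucose, was at 122 to 176 CPM in Vec and 197 to 256 CPM in Vec+BBR livers (log2 fold change 0.56, SE 0.14, adjusted p = 0.00885). The phosphoglucomutase genes split, with Pgm2 higher (0.64, adjusted p = 0.0136) and Pgm1 lower (-0.28, adjusted p = 0.0115), and Pgm2 was also higher with knockdown (0.51, adjusted p = 0.0488). None of the 10 passed in the other 2 comparisons. Of 7 transporters that export conjugates, Abcc4 rose with BBR in Vec mice (0.79, adjusted p = 0.0192). Abcc3, a basolateral exporter of glucuronides, was lower with knockdown without (-0.46, SE 0.14, adjusted p = 0.0394) and with BBR (-0.88, SE 0.15, adjusted p = 0.00124), at 161 to 242 CPM in shRNA+BBR against 324 to 409 CPM in Vec+BBR livers. Abcc2, the canalicular exporter, fell with BBR in shRNA mice (-0.47, adjusted p = 0.0221).

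Of 14 regulators listed, Nfe2l2, Keap1, Ahr and the receptors Nr1i2 and Nr1i3 passed in no comparison (these were chosen for naming after their values were seen). Mafg, a partner of Nrf2, fell with BBR in Vec (-0.48, adjusted p = 0.00567) and in shRNA mice (-0.49, adjusted p = 0.00838). Pparg itself was higher with BBR in shRNA mice (1.28, SE 0.28, adjusted p = 0.00773) and gave 0.36, adjusted p = 0.372 in Vec mice. Cul3 was higher with knockdown (0.34, adjusted p = 0.0349), and Rxra fell with BBR in shRNA mice (-0.43, adjusted p = 0.0441). Leaving out 1 library ended the calls of Gss, Cul3, Rxra, Ggct, Ggt6, Abcc2 and Abcc4, and of Abcc3 and Pgm2 with knockdown without BBR, in at least 3 of 20 fits each. Those of Gclc, Ugdh, Mafg, Abcc3 under BBR and Pparg were kept.

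Marker genes of other liver cells are set beside these results, where 15.5% of all genes passed with BBR in Vec, 15.7% with BBR in shRNA mice and 13.2% with knockdown. Of 8 stellate cell markers 4 rose with BBR in Vec and 5 in shRNA mice, and 1 fell with knockdown. Their summed level went from 233 to 422 CPM over the Vec livers and from 453 to 493 CPM over Vec+BBR livers. With knockdown it went from 318 to 366 CPM (vehicle) and from 386 to 537 CPM (BBR). Of 8 endothelial markers 5 rose with BBR in Vec mice and 4 with knockdown, and 1 rose and 2 fell with BBR in shRNA mice, with sums of 106 to 139, 143 to 182, 141 to 190 and 135 to 188 CPM. Of 8 macrophage markers 1 rose and 1 fell with BBR in Vec, and 1 fell with knockdown and rose with BBR in shRNA mice (sums of 152 to 360, 208 to 329, 205 to 264 and 230 to 334 CPM). Of 5 tested cholangiocyte markers Spp1 rose with BBR for both vectors (sums over 6 of 24.0 to 45.4, 50.3 to 96.6, 25.9 to 34.4 and 31.0 to 87.7 CPM), and Cftr was at 3 counts or fewer in all libraries. Of 6 hepatocyte markers 3 fell with BBR in Vec and 2 in shRNA mice.

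Over all tested genes, 15.5% passed with BBR in Vec, 15.7% with BBR in shRNA mice, 13.2% with knockdown and 8.13% with knockdown under BBR. Of 12 tested genes with higher expression in female liver, 4 fell with BBR in Vec and 6 in shRNA mice. Of these genes 2 rose with knockdown, and 4 rose and 1 fell with knockdown under BBR. Their sums, over 13 listed genes, were 999 to 2483, 746 to 1144, 1265 to 2895 and 595 to 1208 CPM in Vec, Vec+BBR, shRNA and shRNA+BBR livers. Of 11 tested genes with higher expression in male liver, 4 fell with BBR in Vec, 4 fell with knockdown, and 3 rose and 2 fell with BBR in shRNA mice (sums over 12 listed genes of 1232 to 4992, 2012 to 3603, 1107 to 3345 and 2051 to 2659 CPM). The part of these cell and sex-linked genes in the transferase results was not tested.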

How the data were processed

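Poly(A) RNA from 20 mouse livers was sequenced on an Illumina instrument. The authors deposited, per library, expected counts for each gene, which are not normalised and hold some decimals, and FPKM values scaled by the authors for transcript length and library size. The labels name build mm10. The aligner, counting program, strand setting and annotation are not given in the sources used here.

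Expected counts were rounded and tested with edgeR 4.0.16 (R 4.3.3): filterByExpr (minimum count 10, minimum total 15), TMM factors (0.873 to 1.141), 1 quasi-likelihood model of 4 groups, and Benjamini-Hochberg adjustment over 12342 genes at 0.05 in each of 5 comparisons. All 39 transferases passed the filter. CPM use the TMM factors, and FPKM served to compare genes with each other. Replicates are separate mice. The script was tested on simulated data. Positions come from GENCODE M21 (GRCm38) and promoters from RefSeq (GRCm38.p6). Rows of the Ugt1a genes, of Gsta1 and Gsta2 and of the Gstp genes were also summed, and the second sum was repeated with Gm3776 and Gm10639, a choice made after seeing the data. Alternatives were DESeq2 1.42.0, its size factors, other filters, only the groups compared, a replicate block and leaving out each library.

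Values of every liver are given for genes with the smallest adjusted p among those that passed, up to 8 per comparison, and for the 3 with the highest mean FPKM in each family. Of each pathway list up to 4 genes that passed are named, by smallest adjusted p. Some listed genes are not reported here. The members and lists were chosen with earlier results of these data known. Replicate numbers come from the titles, and the labels do not say that they pair mice.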

Additional observations from a re-analysis of the deposited data

Results flagged for a closer look

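In 9 of 156 groups of 5 livers (39 transferases in 4 groups) 1 liver lay far from the other 4, its gap to the nearest exceeding 0.71 of the group's range, where chance alone gives about 1 in 20. Vec replicate 3 was high for Gsta1, at 99.65 CPM against 23.5 to 44.93 CPM in the other Vec livers, and for Gstp3, at 15.55 CPM against 7.149 to 8.949 CPM. In shRNA livers, replicate 1 was high for Gstm3, at 488.9 CPM against 352.6 to 388.6 CPM, and for Gstm4, at 93.12 CPM against 75.57 to 80.63 CPM. Gsta3 was low in shRNA replicate 2, at 1348 CPM against 1639 to 1753 CPM. Ugt2a3 was high in shRNA replicate 3, at 205.5 CPM against 178.0 to 183.3 CPM. Ugt2b37 was low in shRNA replicate 5, at 1.667 CPM against 2.399 to 2.657 CPM. In shRNA+BBR livers, Gstk1 was low in replicate 4, at 159.6 CPM against 190.7 to 201.0 CPM, and Gstm6 was high in replicate 2, at 139.1 CPM against 97.86 to 109.7 CPM.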

How the results depend on the processing

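Numbers of transferases that passed are given in the order BBR in Vec, knockdown, knockdown under BBR, BBR in shRNA, and were 16, 7, 5 and 11. They were 16, 7, 5 and 11 with DESeq2's size factors, 16, 8, 7 and 12 with DESeq2's test, 14, 7, 4 and 10 without a filter, 16, 6, 5 and 11 of 37 with at least 10 counts in every library, and 8, 7, 4 and 13 when only the groups compared were fitted. The interaction gave 0 in every setting run. Leaving out 1 library gave 8 to 18 for BBR in Vec (8 without Vec replicate 2, 9 without Vec+BBR replicate 2, 10 without Vec replicate 1, 18 without Vec replicate 3) and 6 to 10 for knockdown. It gave 1 to 6 for knockdown under BBR (1 without shRNA+BBR replicate 2, 2 without Vec+BBR replicate 4 or 5, 3 without Vec+BBR replicate 2, shRNA replicate 3 or shRNA+BBR replicate 1, 3 or 4, and 6 without Vec replicate 3). For BBR in shRNA it gave 5 to 14 (5 without shRNA+BBR replicate 3, 6 without shRNA+BBR replicate 4, 7 without shRNA replicate 1, 3 or 4, and 14 without Vec replicate 3). With the Ugt1a rows summed, the sign turned for Ugt1a1 and Ugt1a10 with BBR in Vec (0.068, log2) and for Ugt1a9 with knockdown (0.026) and with BBR in shRNA (-0.204), since the sum replaces the single row. With Gsta1 and Gsta2 alone summed, the single-row call of Gsta1 with knockdown was lost (0.577, edgeR adjusted p = 0.052), and those of Gsta2 were kept. A sum with Gm3776 and Gm10639 added was chosen after seeing the data. In it the single-row call of Gsta2 with BBR in shRNA was lost (-0.492), and the other 3 single-row calls of Gsta1 and Gsta2 were kept.

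The replicate number as a block gave 14, 7, 5 and 10, and 0 for the interaction. Same-numbered livers deviated together (correlation over 0.1) in 1 of 5 pairs of Vec and Vec+BBR and 0 of 5 of Vec and shRNA. It was 0 of 5 for Vec+BBR and shRNA+BBR, and 3 of 5 for shRNA and shRNA+BBR. The correlations ran from -0.302 (replicate 2) to 0.262 (replicate 1), both between Vec and Vec+BBR. These values do not decide whether mice were paired. The numbers were not taken as pairs because the labels do not state it. Genes at few counts, such as Ugt2b37 and Gstp2, are limited by depth.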
